A study of Mus musculus with 6 samples.

Results

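D030028A08Rik, Gm14548, AI662270 and 2610203C20Rik are 4 mouse genes known by clone, predicted-gene or expressed-sequence names, and they were selected on the size of their difference between the study's groups. They are 4 of the 23279 genes measured, and 4 of the 3054 whose symbol is of that provisional kind. Their group differences are therefore given as descriptions without a test.

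Total RNA of whole fetal livers was hybridised to 6 Affymetrix arrays at embryonic day 11.5. Carriers of Stab2-Cre with 1 floxed Gata4 allele (Stab2-Cre tg/wt;Gata4 fl/wt) were mated with Gata4 fl/fl mice, and the floxed line is B6;129-Gata4tm1.1Sad/J. The 3 arrays labelled knockout hold Stab2-Cre;Gata4 fl/fl livers, and the titles of the 3 control arrays call them Stab2Cre;Gata4 heterozygous. Controls so named would also carry Cre and a recombined allele, and the Stab2 promoter directs Cre to sinusoidal endothelium, so most cells of the organ were not the target of the deletion. The replicates are labelled biological, and the sources used here do not say how many embryos an array holds. In whole liver, fewer cells of a type and less RNA per cell cannot be told apart.

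Names ending in Rik come from a large collection of full-length mouse cDNA clones, Gm names mark gene models predicted from the genome, and AI names come from expressed sequence tags. D030028A08Rik and AI662270 are annotated as long non-coding RNA genes (lncRNAs), transcripts without a recognised protein product that can act in the nucleus, host small RNAs or have no known role. Gm14548 is annotated as protein-coding and lies among the paired immunoglobulin-like receptors, a family of near-identical cell-surface receptors of myeloid and B cells in which the B form inhibits and the A forms activate through an adaptor. RefSeq lists 2610203C20Rik as a synonym of Mir100hg, the host transcript of miR-100, let-7a-2 and miR-125b-1. These small RNAs repress messenger RNAs through pairing of their seed. In the fetal liver of this stage, macrophages, granulocyte precursors and mast cell precursors develop among erythroblasts, sinusoidal vessels, mesenchyme and hepatoblasts.

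The promoter windows of D030028A08Rik and Gm14548 are shown because their sequences tell what each gene shares with others. They run from 250 bases before to 50 bases after the transcription start, come from RefSeq on GRCm38.p6 and are written 5′ to 3′ on the strand of the gene. In the first, at chr11:96943896-96944195 on the plus strand, capitals mark CCAAT, the box bound by the factor NF-Y, on either strand. In the Gm14548 window at chr7:3898092-3898391 and the Pirb window at chr7:3720333-3720632, both on the minus strand, capitals mark GAGGAAGT, a motif of PU.1, the myeloid transcription factor.
D030028A08Rik: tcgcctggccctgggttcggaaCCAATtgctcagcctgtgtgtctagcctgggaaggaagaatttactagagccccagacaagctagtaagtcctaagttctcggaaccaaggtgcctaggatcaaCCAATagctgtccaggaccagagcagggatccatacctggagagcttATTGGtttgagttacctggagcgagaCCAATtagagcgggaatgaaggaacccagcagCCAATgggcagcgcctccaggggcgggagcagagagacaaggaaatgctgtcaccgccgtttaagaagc
Gm14548: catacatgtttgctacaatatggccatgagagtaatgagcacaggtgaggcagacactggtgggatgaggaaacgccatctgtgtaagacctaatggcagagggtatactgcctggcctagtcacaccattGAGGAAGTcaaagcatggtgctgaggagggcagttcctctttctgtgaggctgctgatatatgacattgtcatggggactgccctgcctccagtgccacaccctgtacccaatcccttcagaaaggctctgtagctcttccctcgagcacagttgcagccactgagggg
Pirb: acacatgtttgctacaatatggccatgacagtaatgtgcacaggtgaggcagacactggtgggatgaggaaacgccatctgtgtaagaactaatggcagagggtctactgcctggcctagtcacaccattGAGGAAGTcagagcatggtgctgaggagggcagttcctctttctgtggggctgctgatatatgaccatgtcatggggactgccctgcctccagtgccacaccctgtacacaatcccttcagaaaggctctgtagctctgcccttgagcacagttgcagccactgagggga

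The D030028A08Rik window holds CCAAT 5 times, a number reached in 0.271% of the 32851 promoter windows of the same length, while 37.4% hold it at least once. CCAAT was searched after this window had been read. The other motifs were searched on both strands and had no match there. They were the GATA factor motifs AGATAA and also TGATAA, the PU.1 motif above, the core of the hypoxia response element ACGTG, the E-boxes CAGCTG and also CAGATG, and the motif of ETS factors CCGGAAGT, which ends in the same 6 letters as that of PU.1. The Gm14548 window holds GAGGAAGT 1 time, as do those of Pirb, Pira1 and Pira2, and 3.20% of all windows hold it. Each of these 4 windows also holds CAGATG 1 time, against 17.2% of all windows with a match. The Gm14548 window matched that of Pirb in 287 of 301 aligned columns (95.3%), that of Pira1 in 94.0% and that of Pira2 in 78.1%. The Pira2 window starts further along the same sequence, so its 329 aligned columns include ends without a counterpart. Its lower share therefore does not measure how far the shared stretch differs. Genes this alike may share probes, so the Gm14548 value may include RNA of relatives. A match describes letters in a window and is no measure of binding.

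For the Mir100hg locus, the mature sequences of miR-100-5p (chr9:41531437-41531458) and miR-125b-5p (chr9:41581940-41581961), both on the plus strand and also from RefSeq on GRCm38.p6, are shown with the seed, bases 2 to 8, in capitals, since these products are what the host transcript is known for.
mmu-miR-100-5p: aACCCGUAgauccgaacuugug
mmu-miR-125b-5p: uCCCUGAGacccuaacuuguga
The seed of miR-100-5p is shared by 3 mature mouse miRNAs of the table, the other members being miR-99a-5p and miR-99b-5p. The seed of miR-125b-5p is shared by 5, which include miR-125a-5p and miR-351-5p. let-7a-2, the third small RNA of the locus, and AI662270 are named without a sequence.

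Gata4 itself read 10.38, 10.26 and 10.64 (log2 value) on the arrays labelled knockout and 9.90, 9.96 and 9.87 on the control arrays. It was higher where the label says knockout (log2 difference 0.51, SE 0.12, limma adjusted p = 0.0409), a call lost in 5 of 6 fits that omitted 1 array. The sources used here do not place its probes relative to the deleted exons, and hepatic mesenchyme also expresses Gata4. The reading is thus no check of the labels, on which all directions below depend. Alb, the serum albumin gene of hepatoblasts, read 13.4 ± 0.09 and 13.5 ± 0.07 (mean ± SD, n = 3 in each group, knockout first). Xist read 10.2 to 10.7 in all 3 arrays labelled knockout and in control replicate 2, whereas control replicates 1 and 3 had Uty, a Y-linked gene, at 8.18 and 8.15. Sex and genotype therefore overlap except through control replicate 2, and each transcript is also given against that array alone. With a sex term, 3 of all genes passed the limma threshold in place of 1480. The number of arrays limits the precision as well.

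D030028A08Rik, the lncRNA on chromosome 11 (Entrez gene 319371), had the largest negative difference of its naming class. It read 8.02, 7.89 and 8.37 on the control arrays and 5.71, 5.19 and 5.77 on the arrays labelled knockout, in log2 values. The groups did not overlap, and the lowest control array lay 2.12 above the highest array labelled knockout. The means were 8.09 ± 0.25 and 5.56 ± 0.32 (SD, n = 3 each), a log2 difference of -2.54 or 5.80-fold lower. Among all 23279 genes it ranked 4 among negative differences. Against control replicate 2 alone the difference was -2.33, and leaving out each array in turn gave -2.64 to -2.35.

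Gm14548, the predicted receptor-like gene on chromosome 7 (Entrez gene 100038909), read 5.99, 5.01 and 6.21 on the control arrays and 4.06, 3.72 and 4.16 on the arrays labelled knockout. The groups were separated by 0.85, and control replicate 2 lay nearest to the arrays labelled knockout. The means were 5.74 ± 0.64 and 3.98 ± 0.23 (log2, SD, n = 3 each), which is 3.38-fold lower (log2 difference -1.76). Its size depended on that array. The difference was -1.03 against control replicate 2 alone and -2.12 without it, and -2.12 to -1.52 over the 6 omissions of 1 array. A sex term gives that same -1.03 by construction, since control replicate 2 is the only control array with high Xist.

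AI662270, the lncRNA on chromosome 11 between schlafen genes (Entrez gene 100043636), read 7.62, 7.83 and 8.05 on the control arrays and 6.62, 5.79 and 6.14 on the arrays labelled knockout. The gap between the groups was 1.00, with knockout replicate 2 lowest. The means were 7.84 ± 0.22 and 6.18 ± 0.41 (log2, SD, n = 3 each), 3.14-fold lower (log2 difference -1.65). Against control replicate 2 alone the difference was also -1.65, and the omissions gave -1.87 to -1.46.

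2610203C20Rik (Entrez gene 100042464) was the transcript of the 4 that was higher on the arrays labelled knockout. It read 7.32, 6.93 and 7.15 on the control arrays and 8.55, 9.32 and 8.0 on the arrays labelled knockout. The groups were 0.68 apart, and the arrays labelled knockout spread over 1.33 log2 units against 0.38 among controls, with replicate 2 highest. The means were 7.13 ± 0.19 and 8.62 ± 0.67 (log2, SD, n = 3 each), 2.81-fold higher (log2 difference 1.49). The difference was 1.69 against control replicate 2 alone, 1.14 without knockout replicate 2 and at most 1.81 over the omissions. Its feature was named by the platform annotation alone, and Mir100hg has a different Entrez gene number (73144). The place of 2610203C20Rik at the Mir100hg locus was therefore taken from the synonym.

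**Figure D1:**
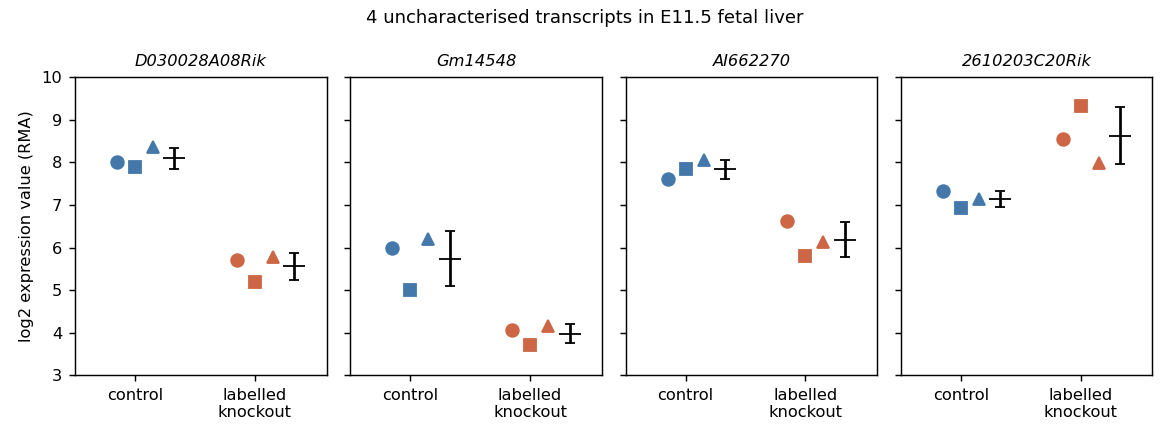
Log2 expression values of the 4 transcripts on the 3 control arrays (blue) and the 3 arrays labelled knockout (orange). Circle, square and triangle are replicates 1, 2 and 3, and black bars are mean ± SD. The groups do not overlap for any of the 4, and control replicate 2 of Gm14548, at 5.01, lies closest to the other group.

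These values chose the transcripts, so the counts that follow carry no weight of their own. Of the 4 transcripts, 3 lay lower and 1 higher on the arrays labelled knockout. All 4 passed the limma threshold of an adjusted p of 0.05, as did 6.36% of all genes (2.77% lower and 3.59% higher). The groups did not overlap for 4 of 4, as for 27.3% of all genes. The range among arrays labelled knockout was 1.23 times that of controls for D030028A08Rik, 0.365 times for Gm14548, 1.91 times for AI662270 and 3.47 times for 2610203C20Rik.

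Several genes of the class lay just outside the selection. Gm11821 (-1.27), AB124611 (-1.23) and Gm20161 (-1.16) were the next negative differences in log2 units. Gm11821 had overlapping groups, whereas AB124611 and Gm20161 did not. Gm15915 (1.79) and Gm8615 (1.76) had larger positive differences than 2610203C20Rik, but their groups overlapped. Gm15915 read 9.54, 3.06 and 3.28 on control arrays and 3.34, 8.60 and 9.32 on arrays labelled knockout, high on 1 control array and on 2 of the others. The next positive difference was C630043F03Rik at 1.16, without overlap.

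Over all 3054 genes of the class, 28 rose and 30 fell at a limma adjusted p of 0.05, which is 1.90%, against 7.03% of the 20225 genes with an established symbol. The median difference was -0.01 in both. The class was dim, with 84.0% of its genes below the median level of all genes against 44.9% of established symbols. Above that median level, 38 of 488 class members passed (7.79%) against 11.3% of established symbols. The count of 58 rests on few arrays, since it was 1 without control replicate 3 and 12 without control replicate 2. D030028A08Rik, AI662270 and 2610203C20Rik lie above that level, and Gm14548 lies below.

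**Figure D2:**
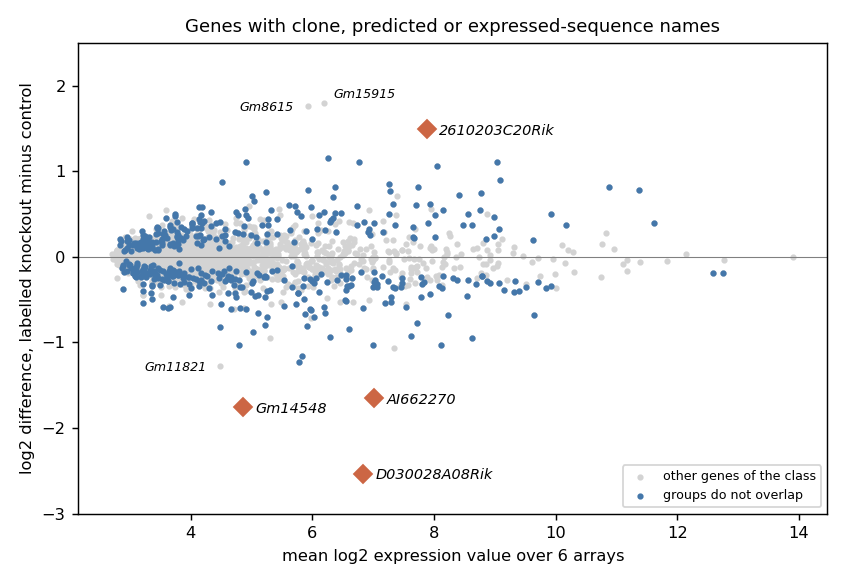
Log2 difference (labelled knockout minus control) against mean log2 value over 6 arrays for the 3054 genes with provisional names. Diamonds are the 4 transcripts, blue points are genes whose groups do not overlap, and most of the class lies at low values near a difference of 0. Gm15915 and Gm8615 reach larger differences than 2610203C20Rik with overlapping groups.

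The genes beside the 4 transcripts were then compared, as these were chosen by position and not by value. The 40 nearest tested genes were taken, 5 on each side of each transcript in gene order. Mir100, Mirlet7a-2 and Mir125b-1 among them lie inside the Mir100hg gene and not beside it. Of the 40, 1 passed the limma threshold (2.5%, against 6.36% of all genes), and 9 had groups without overlap (27.3% of all genes do). The median log2 difference of the 40 was -0.04, with a range of -0.72 to 0.59. Each was smaller in size than that of the transcript beside it, which the choice of transcripts by size made likely beforehand. At an unadjusted limma p under 0.05 there were 5 of 40 (12.5%), against 22.5% of all genes. None of these shares lies above that of all genes, but many of the neighbours were dim. With the dimmest 50% of genes left out, 14 neighbours remained and 2 passed (14.3%, against 17.7% of all genes).

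Around D030028A08Rik, the 10 nearest tested genes ranged from -0.20 for Scrn2, a secernin family gene, to 0.36 for Copz2, a coat protein of Golgi vesicles. Copz2 did not overlap between groups and missed the threshold (SE 0.10, limma adjusted p = 0.0727). The nearest ones, Prr15l before and Sp6 after it, gave -0.16 and -0.10. Gm11525, Cdk5rap3 and Lrrc46 lay between -0.16 and 0.13. The genes directly adjoining D030028A08Rik were not analysed here.

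Around Gm14548, the receptor genes that were tested did not pass, and others of the cluster were not analysed here. Pirb, the inhibitory paired receptor, read 5.16 ± 0.29 on arrays labelled knockout and 5.64 ± 0.13 on controls (log2, SD, n = 3 each). Its groups did not overlap, but the log2 difference of -0.49 (SE 0.15) missed the threshold (limma adjusted p = 0.103). Its relatives Gm15448 (-0.06), the pseudogene Gm10693 (-0.09) and Lilra6 (0.01) were dim, with control means of 3.13, 3.19 and 3.20. Lair1, an inhibitory collagen receptor, gave -0.07, and 9430041J12Rik gave 0.03.

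AI662270 lies between Slfn3 and Slfn14 in a run of schlafen genes, which encode regulators of lymphoid and myeloid cell growth and of translation. Slfn2, a gene that keeps lymphocytes and monocytes quiescent, fell. It read 6.60, 6.62 and 6.47 on control arrays and 6.11, 5.57 and 5.83 on arrays labelled knockout (log2 difference -0.72, SE 0.14, limma adjusted p = 0.0290). That call was lost in 4 of 6 fits that omitted 1 array, where the adjusted p reached 0.0915. Slfn3, directly before AI662270, gave -0.58 (limma adjusted p = 0.0852) without overlap of the groups, and Slfn14, directly after among tested genes, gave -0.51 (adjusted p = 0.272). Slfn4 gave -0.23 and Slfn1 0.01. The lncRNA genes AA465934 (-0.14) and AI450353 (0.59, adjusted p = 0.175) beyond Slfn14 did not pass.

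At the Mir100hg locus the features disagreed. A separate feature named Mir100hg read 3.55, 3.61 and 3.39 on control arrays and 3.72, 4.0 and 3.50 on arrays labelled knockout. This is a log2 difference of 0.22 (SE 0.14, limma adjusted p = 0.406), from a dim feature. The sources used here do not tell which exons each feature reads, and the difference at 2610203C20Rik cannot be assigned to the whole host transcript. The miRNA gene features were dim as well, with Mir100 at 0.13 (adjusted p = 0.422), Mirlet7a-2 at 0.34 (0.329) and Mir125b-1 at 0.32 (0.386, limma). Without knockout replicate 1, Mir125b-1 gave 0.56 and passed (limma adjusted p = 0.0312). They do not measure the mature miRNAs. Among the flanking genes, 1700063D05Rik (0.06), Ubash3b (-0.38), which encodes a phosphatase of leukocyte receptor signalling, and Crtam (-0.23) did not pass.

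**Figure D3:**
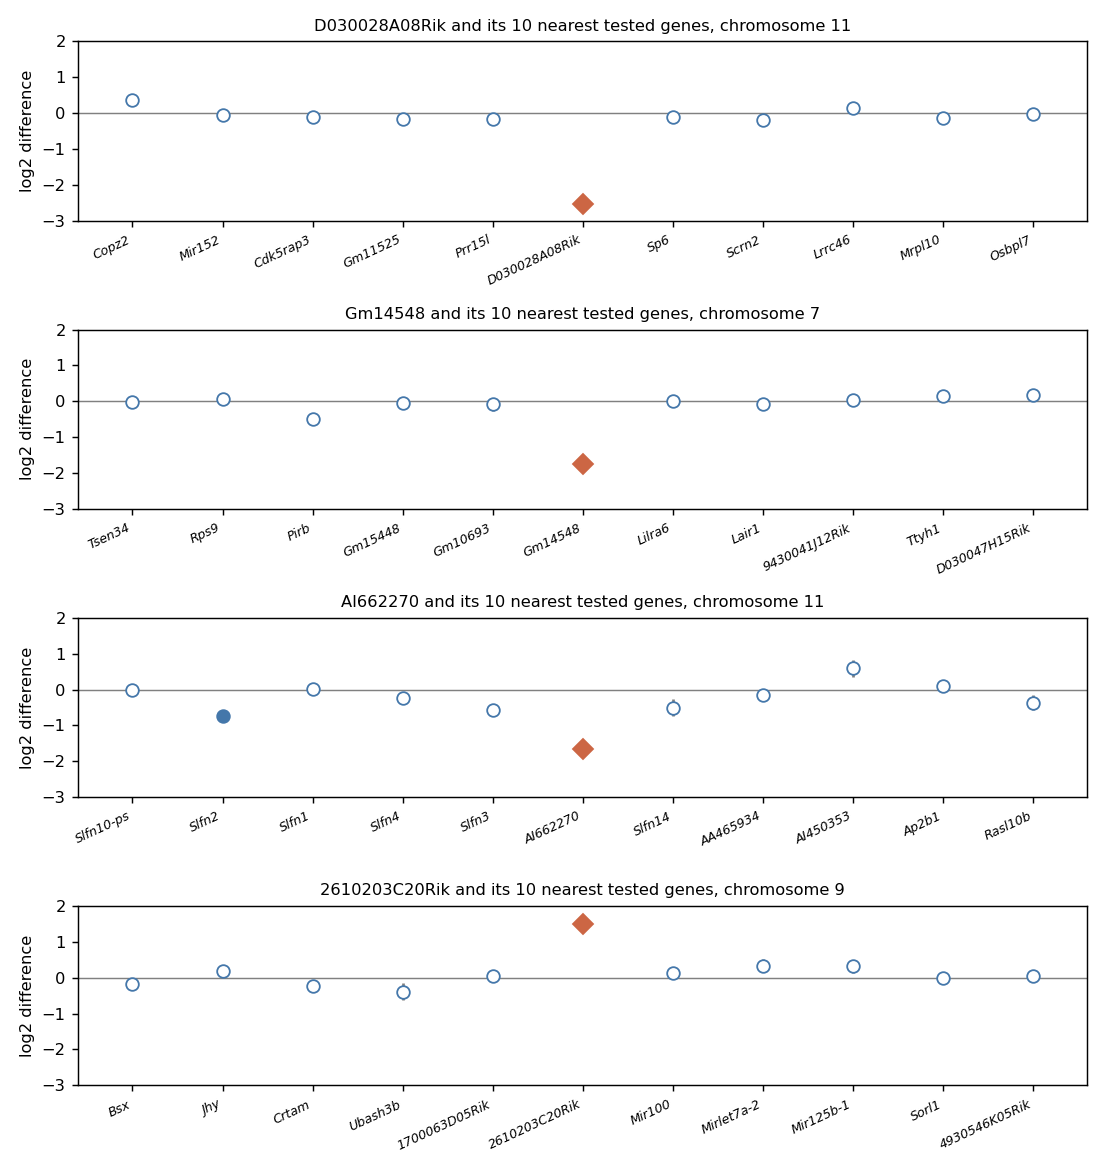
Log2 difference (labelled knockout minus control) of each transcript (diamond) and its 10 nearest tested genes in genome order (circles, bars are SE of the limma fit and mostly hidden by the symbols). The filled circle is Slfn2, the 1 neighbour of 40 past the threshold, and the other neighbours lie between -0.58 and 0.59.

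Genes with an established symbol were next ranked by likeness, the root mean square difference over the 6 arrays of log2 value minus the control mean, where 0 is an identical profile. This is a description, since the arrays fall into 2 groups and many genes follow such a step. The 3 falling transcripts were close to each other, at 0.61 for D030028A08Rik and Gm14548, 0.65 for D030028A08Rik and AI662270 and 0.42 for Gm14548 and AI662270. Each lay 2.30 to 2.91 from 2610203C20Rik. These distances restate the selection, since the measure depends mostly on the group differences that chose the transcripts.

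D030028A08Rik was nearest to Adgre4 (0.40), an adhesion receptor of macrophages, followed by Clec4a1 (0.57), Spic (0.57), Cpa3 (0.60), Igsf6 (0.65) and Ms4a3 (0.69). Spic encodes the transcription factor of red pulp and other iron-recycling macrophages, Cpa3 a mast cell carboxypeptidase and Ms4a3 a membrane protein of granulocyte-monocyte progenitors. Adgre4 read 6.67, 5.82 and 6.84 on controls and 4.75, 3.93 and 4.35 on arrays labelled knockout. Its nearest gene was farther from it than the gene at rank 6 was from any of the other 3 transcripts.

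Gm14548 was nearest to Cpa3 (0.22), Clec4a1 (0.29), Adgre4 (0.30), Igsf6 (0.30), Tfec (0.30) and Mpeg1 (0.31), the last encoding a pore-forming protein of macrophages. All 6 of these genes had their lowest control value on replicate 2, as did Gm14548. The same held for D030028A08Rik and for the mean level of the macrophage markers described below, so it is not particular to Gm14548. Cpa3 read 7.73, 7.27 and 8.35 on the controls and 6.26, 5.90 and 5.90 on the arrays labelled knockout.

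AI662270 was nearest to Abcg3 (0.20), Timd4 (0.21) and Clec7a (0.21), then Cldn13 (0.24), Slc11a1 (0.26) and Adgre1 (0.27). Timd4 encodes a receptor for dying cells on resident macrophages, Clec7a the beta-glucan receptor dectin-1, Slc11a1 a phagosome metal transporter, Adgre1 the F4/80 antigen and Cldn13 a claudin of erythroid cells. In all 6 of these genes and in AI662270 itself, knockout replicate 2 was the lowest of the 6 arrays. That is not particular to them, as it also held for D030028A08Rik, Gm14548 and the nearest genes named for each. Timd4 read 6.88, 6.74 and 6.75 on controls and 5.64, 4.99 and 5.29 on arrays labelled knockout.

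2610203C20Rik was nearest to Cacng7 (0.23), Trp53i11 (0.28), Fgf11 (0.30), Igfbp1 (0.31), Trgc1 (0.31) and Spaca6 (0.31). Cacng7 encodes an auxiliary subunit of neuronal calcium channels and glutamate receptors, Fgf11 an intracellular fibroblast growth factor homologue and Igfbp1 a secreted binding protein of insulin-like growth factors made by liver. Cacng7 read 6.77, 6.64 and 6.71 on controls and 7.83, 9.25 and 7.32 on arrays labelled knockout, with replicate 2 highest as for 2610203C20Rik.

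Marker lists gave a further description of these profiles. Among the 50 nearest genes there were 10 macrophage markers for D030028A08Rik, 11 for Gm14548, 9 for AI662270 and 0 for 2610203C20Rik. Granulocyte and mast cell markers numbered 6, 5, 3 and 0, and sinusoidal endothelial markers 2, 2, 3 and 0, in the same order. Erythroid and megakaryocyte markers numbered 0 for each of the 4, though their medians were also negative (-0.81 and -0.73). The macrophage list is 23 of the 20225 genes ranked, and all 23 had negative differences. Likeness depends mostly on the group difference, which chose the transcripts. These counts thus carry no weight of their own, and the direction of 2610203C20Rik set its 0 macrophage markers beforehand. The 50 nearest to 2610203C20Rik held Apln and Cav1 of the shared and continuous endothelial list and Pdgfra and Rgs5 of the mesenchymal list. The measure decides such names, because ranking by Pearson's r instead shared 0 of 6 genes for each of the 4, and 596 to 1207 genes reached an r of 0.9 with a transcript.

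**Figure D4:**
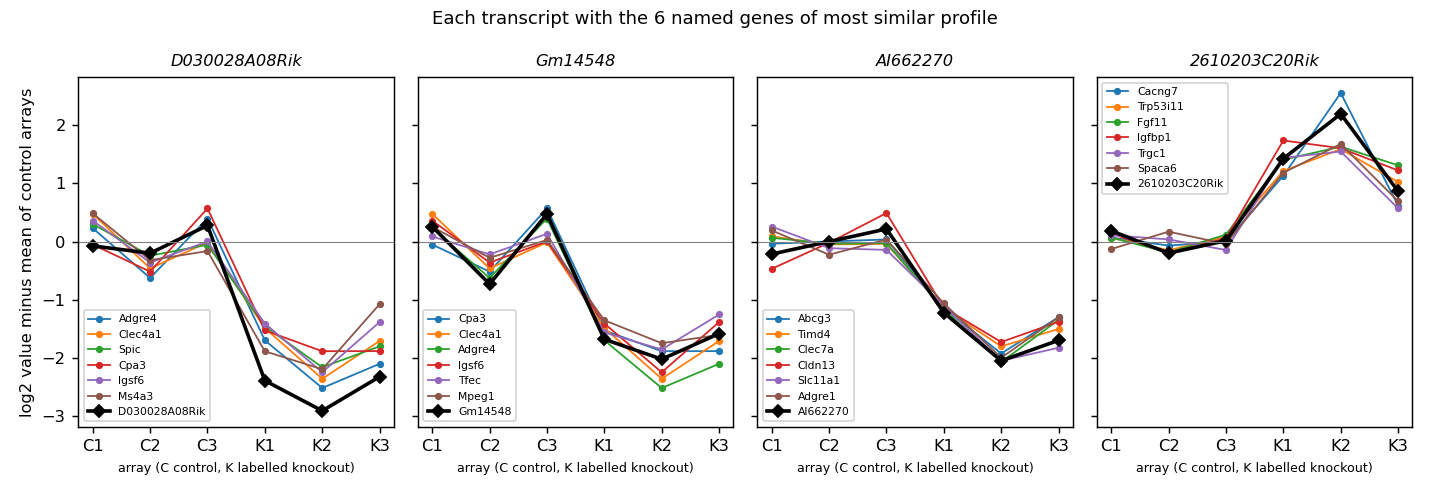
Log2 value minus the control mean on each array for each transcript (black) and the 6 named genes of most similar profile (colours), with controls C1 to C3 and arrays labelled knockout K1 to K3. The falling transcripts and their nearest genes step down together, and 2610203C20Rik and Cacng7 both peak on K2.

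Markers of several cell types differed between the groups alongside the 4 transcripts. At the limma threshold, 2.77% of all genes were lower and 3.59% higher, the shares against which the counts of each list are to be read. Of 23 macrophage markers 17 fell and 6 did not pass (limma adjusted p of 0.05, median log2 difference -1.12 against -0.01 over all genes). Their mean level was 5.81 to 6.23 on arrays labelled knockout and 6.88 to 7.23 on controls, and the median was -0.98 against control replicate 2 alone. The smallest p values were those of Mrc1 (-1.06, adjusted p = 0.0074), Mpeg1 (-1.56, 0.0074), Marco (-1.12, 0.00813) and Timd4 (-1.48, 0.00827). Mrc1 is also on the sinusoidal endothelial list, so its fall is counted in both lists and is not particular to macrophages. Of 21 granulocyte and mast cell markers 11 fell, with a median of -0.68 and levels of 5.02 to 5.47 against 5.98 to 6.24. Of 16 sinusoidal endothelial markers 8 fell and 1 rose, Rspo3, named after its value was seen (median -0.44). Of 19 erythroid markers 9 fell (median -0.81), and of 11 megakaryocyte markers 3 fell (-0.73). Without control replicate 3 the numbers past the threshold were 3 macrophage, 1 granulocyte, 2 sinusoidal, 1 erythroid and 0 megakaryocyte markers. The part of these cell types in the 3 falling transcripts was not tested.

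In the other direction, 9 of 19 shared and continuous endothelial markers rose (median 0.43), as did 7 of 20 mesenchymal markers (0.50), 3 of 11 mesothelial markers (0.34) and 2 of 22 hepatoblast markers (0.35). Of all genes, 3.59% were higher at that threshold, and counts as small as that of the hepatoblast list are not read as results about the list. Cav1 (1.43, limma adjusted p = 0.00591) and Rgs5 (1.69, 0.0074) were among the rises. Of 12 neural and neural crest markers 1, Dcx, rose (0.83, adjusted p = 0.0357), a call lost in 5 of 6 fits that omitted 1 array. Without control replicate 3, the endothelial and mesenchymal lists each had 1 marker past the threshold and the mesothelial and hepatoblast lists 0. The mean level of the neural and neural crest list was 5.82 on knockout replicate 2 and 4.55 to 4.76 on the other 5 arrays. Knockout replicate 2 is also where 2610203C20Rik was highest. Heart muscle markers read 7.0 on control replicate 2, 6.32 on knockout replicate 3 and 5.10 to 5.71 elsewhere, with 0 of 14 past the limma threshold and 1 at an unadjusted p under 0.05. The part of these cells in the difference of 2610203C20Rik was not tested.

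**Figure D5:**
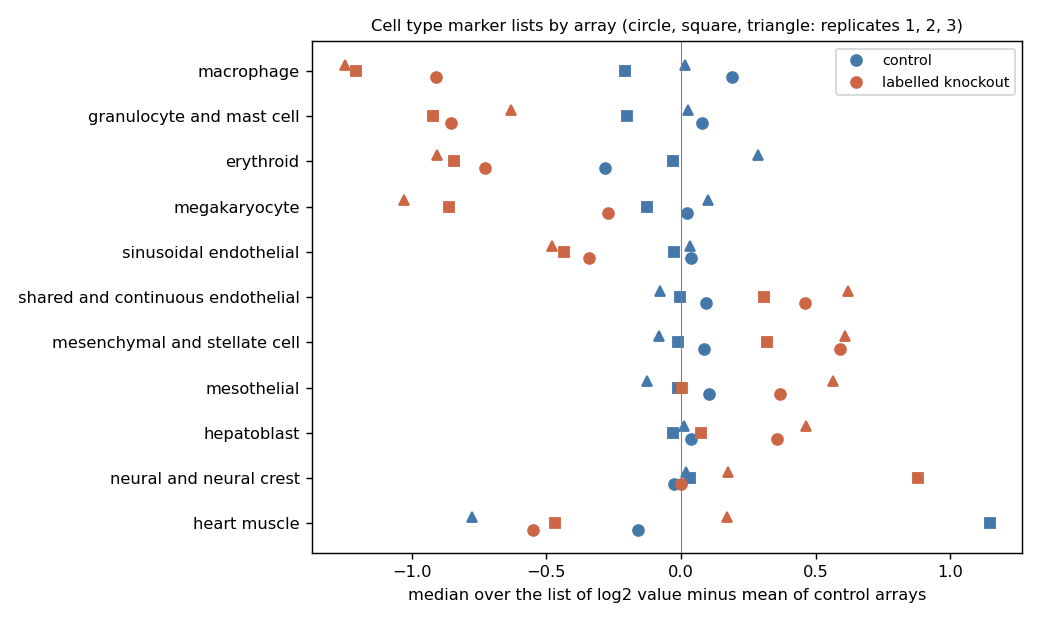
For each cell type marker list, the median over its members of log2 value minus the control mean, per array (blue controls, orange arrays labelled knockout, with circle, square and triangle for replicates 1, 2 and 3). Macrophage, granulocyte and erythroid lists lie lower on all 3 arrays labelled knockout, and the neural list stands apart on knockout replicate 2.

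Gene families related to the transcripts by annotation or by chromosome position were tested as well. Their counts are to be read against 2.77% of all genes lower and 3.59% higher at the limma threshold, and 22.5% at an unadjusted p under 0.05. In lists this short, 1 call is not read as a result about the list. Of 9 paired immunoglobulin-like receptors and relatives, 1 fell, the platelet collagen receptor Gp6 (-1.18, SE 0.26, limma adjusted p = 0.0401), and 2 had an unadjusted p under 0.05 (median of the list -0.07). Of 9 adaptors and enzymes of activating and inhibitory leukocyte receptors in general, 3 fell and 1 rose (median -0.68). The falls were Tyrobp (-1.06, adjusted p = 0.0195), the adaptor DAP12, Syk (-0.94, 0.0281), the kinase it recruits, and Ptpn6 (-0.83, 0.0278), the phosphatase SHP-1 of inhibitory receptors. Src rose (0.41, adjusted p = 0.0447). The adaptor gene Fcer1g (-0.68, SE 0.21, limma adjusted p = 0.101) was among the 5 that did not pass. Omitting 1 array at a time lost the call of Tyrobp in 2 of 6 fits, of Syk, Ptpn6 and Gp6 in 5 and of Src in 6, and with a sex term none of these passed. Of 14 chemokines of the Ccl cluster, which lies near the schlafen genes, and their receptors, 2 fell, Ccl6 (-0.81, adjusted p = 0.0294) and Ccl9 (-0.69, 0.0286), calls lost in 4 and 5 of 6 such fits, and 5 had an unadjusted p under 0.05. Of 9 schlafen genes 1 fell, Slfn2, and 2 had an unadjusted p under 0.05 (median of the list -0.16).

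Among 38 miRNA host and other long non-coding transcripts 6 rose, 32 did not pass and 16 had an unadjusted p under 0.05 (limma, median 0.19). Those of smallest p were Carmn (0.75, adjusted p = 0.0092), host of miR-143 and miR-145, the imprinted transcripts Meg3 (0.86, 0.0126) and Rian (0.68, 0.0167), and Dnm3os (1.00, 0.0243), host of miR-199a and miR-214. Over the fits that omitted 1 array 0 to 6 of the list passed, and the call was lost in 1, 1, 3 and 4 of 6 for these genes, in the same order. Of 25 genes known as targets of let-7, miR-100 or miR-125, 1 rose, the chromatin protein gene Hmga2 (0.68, adjusted p = 0.0313), a call lost in 4 of 6 such fits, and 7 had an unadjusted p under 0.05. Lin28b, whose product blocks let-7 maturation, gave -0.45 (adjusted p = 0.0770), and the median of the list was 0.06.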

How the data were processed

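Expression was measured on 6 arrays, 3 labelled knockout and 3 control. The deposited values are log2 expression values that the authors made with RMA, per the submitters' processing notes. RMA corrects background, quantile-normalises arrays and summarises probes. For the chip definition, nothing was found in the sources used here. All 6 arrays have the same sorted values, so a shift of most genes or of total RNA cannot be seen, and each value reflects all cells of the organ together. Columns of values without a sample numbered 0.

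Of 24479 features, 23156 were named through a RefSeq gene table (GRCm38.p6), 125 by the platform annotation alone, and 1198 were unnamed. The brighter of 2 features was kept where a name was shared, which left 23279 genes. The groups were compared by the moderated linear model of limma 3.58.1 (R 4.3.3, no covariate), with Benjamini-Hochberg adjustment over all of them and a threshold of 0.05. No filter on dim genes was used. The residual degrees of freedom were 4, with 4.06 added by moderation. The procedure was tested on simulated data. An exact permutation test of 3 against 3 cannot go below a two-sided p of 0.1.

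The transcripts, the 17 gene lists (292 of 328 members measured) and the tests were chosen with earlier results of these data known. Named genes are the 4 transcripts, the 3 next rises and falls of their class, the nearest 3 to 5 tested genes on each side, the 6 most alike by profile, up to 4 of the smallest p in a list, and receptor or miRNA genes at the loci. Gene order came from the RefSeq table. Alternatives were a variance trend, robust eBayes, other normalisations, leaving out dim genes, averaging features, a replicate block, a sex term, other thresholds, other numbers of neighbours, Pearson's r as likeness, and leaving out each array. Same-numbered arrays did not deviate together, so the numbers were not treated as pairs.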

Additional observations from a re-analysis of the deposited data

Results flagged for a closer look

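The 1198 features without a gene name enter no comparison above. Of them, 4 were at least 2-fold higher on the arrays labelled knockout with groups that did not overlap (log2 differences of 1.00 to 1.42), and 5 were at least 2-fold lower (-1.64 to -1.0). They were singled out as signal in data outside the comparisons and make up 0.751% of the unnamed features, against 1.08% of named genes past the same fold without overlap. Groups of 3 arrays are too small for a check of single outlying arrays.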

How the results depend on the processing

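Of 63 alternative values of the 4 transcripts' differences, 61 kept their direction and stayed within the replicate spread, and 0 reversed. The other 2 were Gm14548 with a sex term and against control replicate 2 alone, both -1.03 and the same comparison by construction. These counts are no independent support. With groups that do not overlap, leaving out 1 array cannot reverse a direction. A variance trend, robust eBayes, leaving out dim genes or a replicate block does not change the difference itself.

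The count of genes past the threshold (1480), of class genes (58) and of the 40 neighbours (1) was smaller with the replicate number as a block, at 686, 29 and 0. With a sex term it was 3, 0 and 0, where 214 class genes and 3 neighbours had an unadjusted limma p under 0.05 (7 neighbours with the block). An adjusted p of 0.1 gave 2700, 128 and 3, and a fold change of at least 1.5 gave 926 genes and 36 of the class. Leaving out 1 array gave 41 to 1395 genes, 1 to 53 of the class and 0 to 2 neighbours, lowest for genes and class without control replicate 3. The pair without knockout replicate 1 was Slfn2 and Mir125b-1. Leaving out the dimmest 50% gave 2 neighbours, Slfn2 and Copz2. Among 3 neighbours on each side 0 passed (3 at an unadjusted p under 0.05), and among 10 on each side 2 did, Slfn2 and Sc5d (0.48, limma adjusted p = 0.0479). The cause was not tested.

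The correlations of same-numbered arrays' deviations were -0.05, -0.01 and -0.08. List counts and named genes were also refitted under these alternatives, a choice made after seeing the data, and the adjusted p of Gp6 reached 0.142 and that of Src 0.155 over the omissions of 1 array. With the dimmest 50% left out there is no value for Gm14548. With no measure of signal over background, dim features such as Mir100 could not be told from background.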
